A study of Mus musculus with 18 samples.

Results

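The 50 genes described here encode collagens, laminins, proteoglycans, matrix glycoproteins and the enzymes and scaffolds that crosslink elastic and collagen fibres. They were taken by symbol from the table of TPM values, in which reads are divided by gene length and scaled so that each sample sums to 1000000, where 50 of 50 were found among 54838 genes. Lama2 and Vcan had means of 0.158 and 0.0224 TPM over the 18 samples and were left out, since members with a mean under 0.2 TPM were skipped, so 48 were kept. The samples were mouse livers and liver tumours of the C57BL/6 strain, all with an age of 36 weeks in the labels, in 6 groups of 3. WT mice and global knockout mice (GKO), which lack the miR-181ab1 cluster in all tissues, gave tumours and non-tumours, meaning liver beside tumour, after one injection of the liver carcinogen diethylnitrosamine (DEN) at 25 mg/kg on postnatal day 12. Normal livers came from untreated mice of both genotypes. Because the deletion is in every cell, a difference between GKO and WT tissue is not tied to hepatocytes, and the labels do not tie a sample to an animal, so p-values measure only the spread between these samples, which may be partly technical.

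The extracellular matrix is the meshwork of secreted proteins around cells. In normal liver it is sparse: fibrillar collagens lie mostly around the portal tracts and central veins, and the sinusoids lack a continuous basement membrane. Stellate cells and portal fibroblasts are the main sources of fibrillar collagen, and hepatocytes themselves secrete fibronectin and type XVIII collagen. In bulk tissue a lower level can come from fewer cells of a type or from less RNA per cell, and these cannot be told apart.

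Recovered reads on genes ranged from 11925059 to 20751353 per sample. Hepatocyte markers were present in every group, with albumin (Alb) at 22860 TPM or more in all samples. WT non-tumour 2 stood apart: its correlation with the mean of the other WT non-tumours, over genes whose mean reached 0.5 TPM, was 0.938, against 0.965 and 0.968 for the other two, so results that rest on it are given with and without it. WT tumours 1 and 2 were the most alike pair of any group (r = 0.982), although their reads differed by more than sampling alone, with a median chi-square of 3.17 per gene against 0.448 for sampling. WT tumour 3 had the lowest correlation of any sample with the mean of the others in its group, at 0.924. The deleted genes do not check the genotype in these libraries: Mir181b-1 was listed at 0 TPM in all 18 samples and Mir181a-1 in 17, with 1 read in GKO tumour 3.

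The miRNAs that GKO mice lack are shown because some members carry sites for them. Both mature 5p strands, from chr1:137966468-137966490 and chr1:137966650-137966673 (plus strand, RefSeq, GRCm38.p6), share the seed in capitals.
miR-181a-5p: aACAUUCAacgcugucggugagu
miR-181b-5p: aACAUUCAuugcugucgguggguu
The 3′ UTRs of the longest coding transcripts (GENCODE mouse release 21, mm10) were searched on the transcript strand for TGAATGT, the reverse complement of the seed. Of the 48 kept members, 9 (18.8%) had a match, beside 1846 of 11572 genes (16%) whose mean reached 0.5 TPM. A 7-base match was found in 8 members and is printed in capitals on the transcript strand, with bases around it. Lox, on the chromosome left out here, had an 8-base match. A match is a run of letters and does not show that the miRNA binds.
Col4a1, chr8:11199005-11199011, minus strand: catcaggccacTGAATGTgaaacaccagc
Col5a1, chr2:28038340-28038346, plus strand: tgttcagttgcTGAATGTttgtggtgcta
Col5a2, chr1:45375262-45375268, minus strand: gtgcccagtaaTGAATGTtaagactctcc
Col6a3, chr1:90766867-90766873, minus strand: ataaagtatatTGAATGTgccatga
Col12a1, chr9:79600765-79600771, minus strand: tgtacacgatcTGAATGTgatcctgtata
Col16a1, chr4:130099167-130099173, plus strand: ctgatgggttgTGAATGTttgtgctattc
Lamc1, chr1:153220828-153220834, minus strand: gactaggaagaTGAATGTttcccaaatcc
Tgfbi, chr13:56638828-56638834, plus strand: aaagagaccatTGAATGTttttgaaacca

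The summed level of the 48 members was lowest in WT normal livers, at 481.5, 465.6 and 514.4 TPM, and highest in GKO tumours, at 1352, 1181 and 1242 TPM. WT tumours lay between, at 779.6, 844.5 and 1091 TPM, so that all GKO tumours were above all WT tumours. The means were 1258 ± 86.7 TPM in GKO tumours and 905 ± 164 TPM in WT tumours (SD, n = 3), and the exact permutation test, 2-sided, gave p = 0.1, the smallest that 3 against 3 allows. Col18a1, whose product releases endostatin, was the most abundant member in 15 of the 18 samples, at 149 to 446 TPM. Fn1 (fibronectin, which links cells to matrix) and Ecm1 (a secreted glycoprotein) were the other members among the 3 most abundant in all 6 normal livers, and Ecm1 was first in GKO normal livers 1 and 3. In tumours Ecm1 gave way to Sparc, a collagen-binding glycoprotein: Ecm1 made up 11.8 to 24.6% of the members' summed TPM in WT normal livers and 0.556 to 5.3% in the 6 tumours. Without Fn1, Col18a1 and Ecm1, the sum was 634 ± 63.8 TPM in GKO tumours against 208 ± 41.5 TPM in GKO non-tumours, and 390 ± 82.8 TPM in WT tumours against 242 ± 51.6 TPM in WT non-tumours (SD, n = 3).

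**Figure D1:**
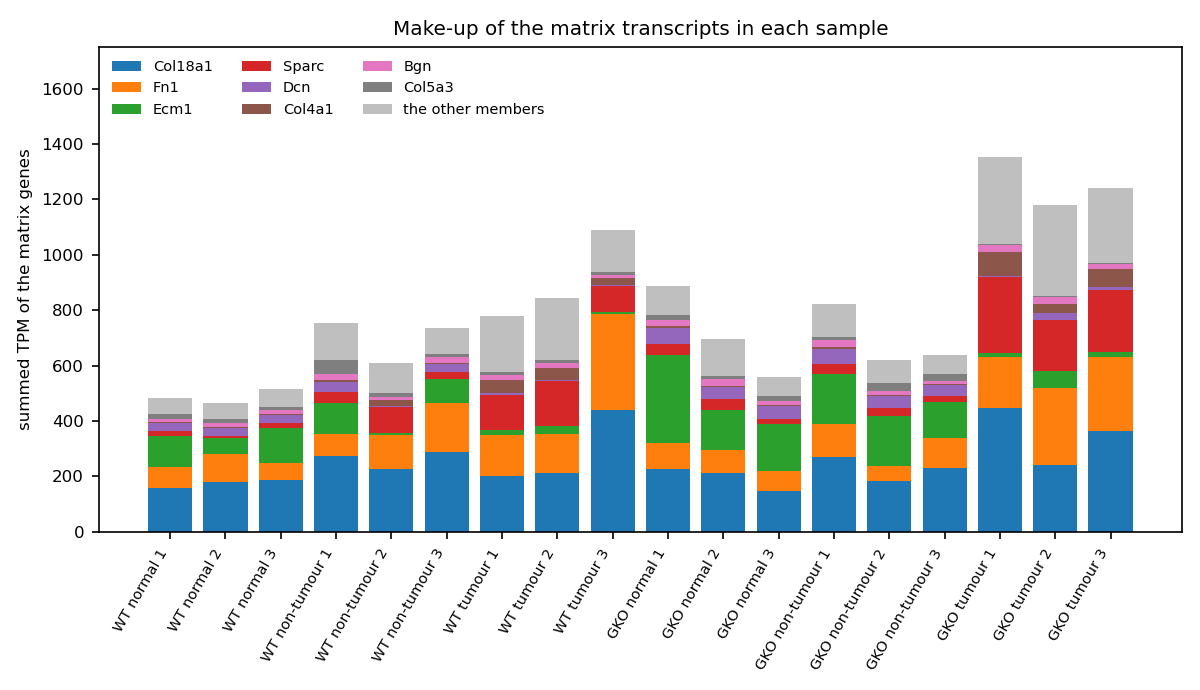
Summed TPM of the 48 matrix genes in each of the 18 samples (bars, from 0), split into the 8 genes with the largest share and the other members. The GKO tumours reach 1181 to 1352 TPM and the WT normal livers 465.6 to 514.4 TPM, and the green Ecm1 segment is thin in all 6 tumours and in WT non-tumour 2.

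In GKO mice, 5 fibrillar collagens, 8 basement membrane genes and Sparc were among the members higher in tumours than in non-tumours, while Ecm1, Dcn, Efemp1 and the fibrillar collagens Col5a3 and Col27a1 were lower. The comparison used limma on log2(TPM + 1) with Benjamini-Hochberg adjustment over all 14092 genes that averaged 0.5 TPM or more in its samples, and 46 members passed that filter. Of these, 24 rose and 5 fell at an adjusted p under 0.05, beside 7.75% of all genes tested called higher and 3.97% called lower. For 8 of the 46, all higher in tumours, non-tumours lay under 0.5 TPM, so the tumours alone carried them through the filter. They gave 6 of the calls (Col6a3, Col8a1, Eln, Fbln2, Fbn1 and Thbs1), and the other 18 rises and all 5 falls were among members at 0.5 TPM or more in both groups. The 48 kept members were chosen by a mean over all 18 samples, tumours included. Col8a1 and Lox averaged under 0.2 TPM in every group but the tumours. Of the 48, 42 (87.5%) were higher in tumours, beside 60.1% of the 16574 genes that averaged 0.2 TPM or more over the 18 samples. The median log2 fold change was 1.00 for members and 0.15 for all those genes. Median centring lowered the median of all genes tested from 0.20 to -0.04, and 15 members then rose and 5 fell, while the calls over all genes went from 1092 higher and 560 lower to 777 higher and 990 lower. The number of calls depended on single libraries. It was 13 without GKO non-tumour 2, 8 without GKO non-tumour 3, 18 without GKO tumour 1 and 15 without GKO tumour 3. Shares of all genes called in these fits are not given here. The 8 members Col1a1, Col1a2, Col3a1, Col4a1, Col4a2, Lama5, Nid1 and Sparc were called with each library left out in turn.

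**Figure D2:**
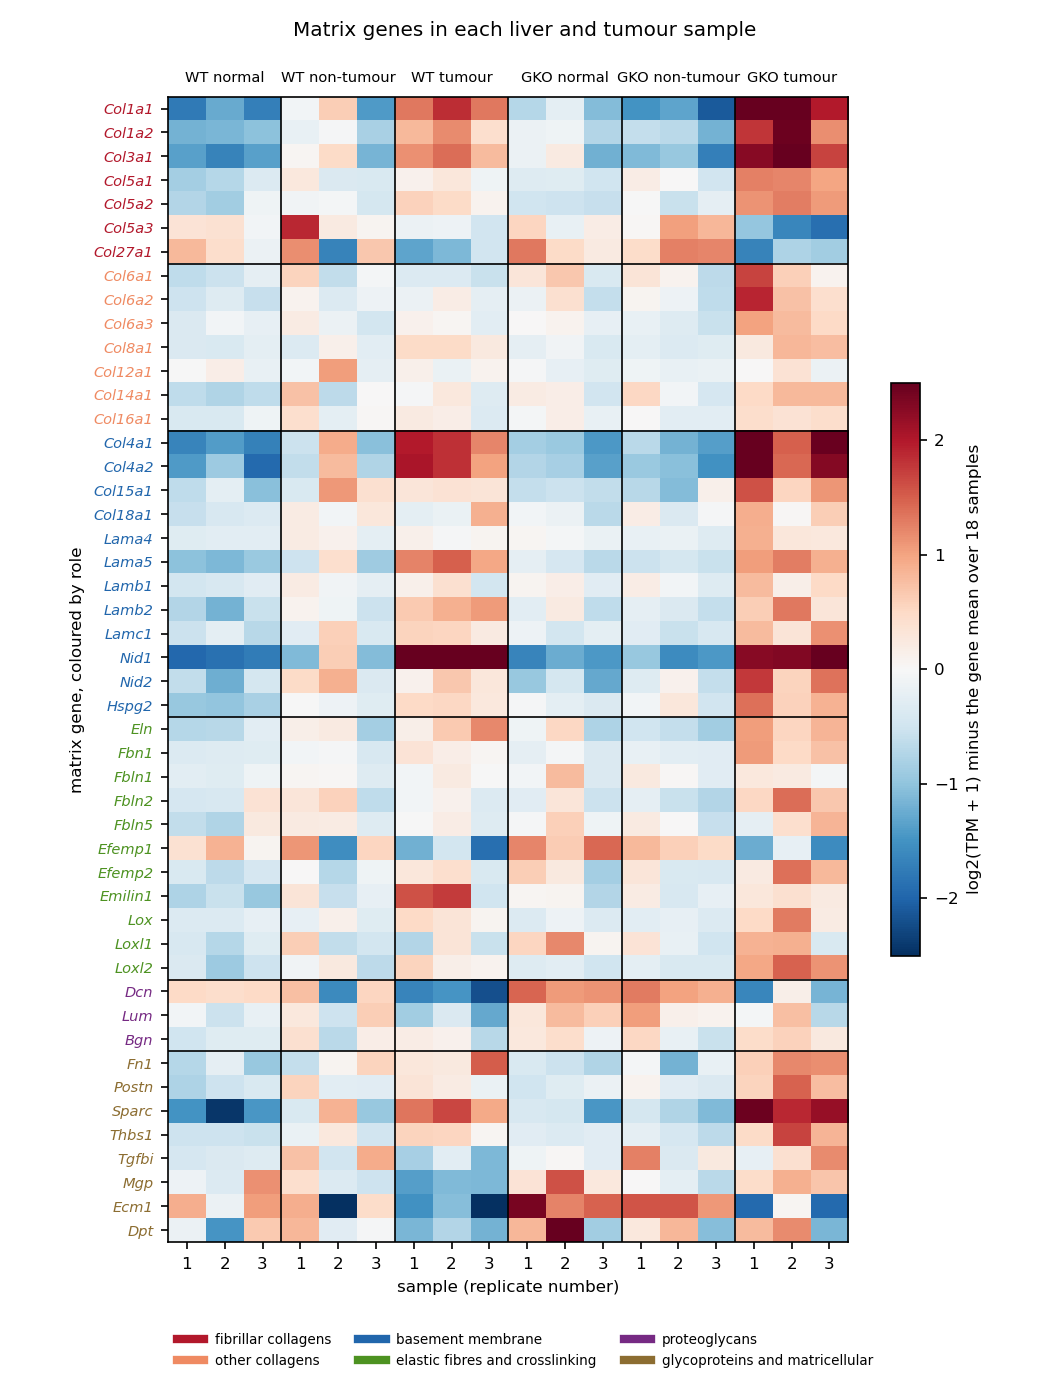
Level of each of the 48 members (rows, grouped and coloured by role) in each sample (columns, 3 for each group), as log2(TPM + 1) minus the gene's mean over the 18 samples, with red above and blue below that mean and the scale limited to -2.5 and 2.5. Col1a1, Col3a1, Col4a1, Col4a2, Nid1 and Sparc are red in the 6 tumours, Dcn and Ecm1 are blue in the WT tumours, and WT non-tumour 2 differs from the other WT non-tumours in Nid1, Dcn, Ecm1 and Efemp1.

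The fibrillar collagens form the tensile fibres of scar and stroma, and 5 of the 7 rose in GKO tumours. Col1a1, a chain of type I collagen, was at 39.5, 62.2 and 23.5 TPM in GKO tumours and at 1.19, 1.46 and 0.435 TPM in GKO non-tumours. The groups were far apart, with a log2 fold change of 4.33 ± 0.38 (SE, limma, adjusted p = 0.00406), the largest of any member. Its partner chain Col1a2 was at 13.6, 22.1 and 8.41 TPM against 1.78, 1.63 and 0.859 TPM, a log2 fold change of 2.62 ± 0.35 (SE, adjusted p = 0.00828). Col3a1, the type III collagen found beside type I, was at 32.5, 40.7 and 21.4 TPM against 2.23, 2.59 and 1.11 TPM, a log2 fold change of 3.44 ± 0.31 (SE, adjusted p = 0.00406). The type V chains Col5a1 and Col5a2, which nucleate type I fibrils, rose by less, with log2 fold changes of 1.25 and 1.42 (adjusted p = 0.0196 and 0.0105). The third type V chain went the other way. Col5a3 was at 6.09, 3.48 and 2.75 TPM in GKO tumours and at 13.2, 27.3 and 23.7 TPM in GKO non-tumours, and it fell by 2.13 on the log2 scale (adjusted p = 0.0136). Col27a1, a minor fibrillar collagen, fell by 2.08 on the log2 scale (adjusted p = 0.0127).

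The rise of Col1a1 was steeper than that of Col1a2, so the balance of the chains moved. In GKO tumours the ratio of Col1a1 to Col1a2 TPM was 2.91, 2.82 and 2.79, and in GKO non-tumours it was 0.668, 0.893 and 0.506 (exact permutation test, 2-sided, p = 0.1, the smallest possible). In WT tumours it was 2.28, 2.49 and 3.09, and in WT non-tumours 1.78, 2.69 and 0.934, where WT non-tumour 2 overlapped the tumours (p = 0.3, same exact test). In GKO non-tumour 3 this ratio rests on 23 reads of Col1a1 and 86 of Col1a2.

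Basement membranes are sheets of laminin and type IV collagen joined by nidogens and perlecan, and of 12 genes tested 8 rose in GKO tumours while none fell. Nid1, the linker nidogen, was at 26.7, 27.5 and 35.7 TPM in GKO tumours and at 1.97, 0.938 and 1.11 TPM in GKO non-tumours, a log2 fold change of 3.74 ± 0.24 (SE, adjusted p = 0.00218). Col4a1 was at 84.6, 32.4 and 64.6 TPM against 6.47, 4.26 and 3.59 TPM, a log2 fold change of 3.34 ± 0.38 (SE, adjusted p = 0.00551). Col4a2 was at 54.2, 22.8 and 42.5 TPM against 3.61, 3.28 and 2.08 TPM, a log2 fold change of 3.29 ± 0.35 (SE, adjusted p = 0.00506). These chains assemble together, and their genes lie head to head on chromosome 8. Their starts share the 22 bases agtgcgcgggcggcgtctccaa (chr8:11312805-11312826, plus strand, RefSeq, GRCm38.p6), and whether counting used strand is not given in the sources used here, so reads there cannot be assigned with certainty. The ratio of Col4a1 to Col4a2 TPM was 1.501 ± 0.0727 in GKO tumours and 1.606 ± 0.268 in GKO non-tumours (SD, n = 3, exact permutation p = 0.5), a spread wider than the difference. Among laminins Lama5 rose most, from 1.12, 1.25 and 1.09 TPM to 5.31, 6.47 and 4.72 TPM, and Lamc1 and Lamb2 rose with log2 fold changes of 1.16 and 1.14 (adjusted p = 0.0295 and 0.0469). Col15a1, Col18a1's relative in the basement membrane zone, and Nid2 rose with log2 fold changes of 1.63 and 1.497 (adjusted p = 0.0374 and 0.0367). Col18a1 itself, Lama4, Lamb1 and Hspg2 (perlecan) did not pass, with log2 fold changes of 0.59, 0.69, 0.55 and 1.039 and adjusted p-values of 0.22, 0.0929, 0.172 and 0.061.

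Among elastic fibre and crosslinking genes 4 of 10 tested rose and 1 fell. Loxl2, a lysyl oxidase that crosslinks collagen, was at 2.88, 4.48 and 3.31 TPM in GKO tumours and 0.685, 0.519 and 0.528 TPM in GKO non-tumours (log2 fold change 1.52, adjusted p = 0.00838). Eln (elastin), Fbn1 (fibrillin of microfibrils) and Fbln2 (a fibulin) rose with log2 fold changes of 1.47, 1.02 and 1.37. Lox was at 0.788, 2.13 and 0.456 TPM in GKO tumours and at 0.106 TPM or less in GKO non-tumours, without passing the test (adjusted p = 0.0832). Efemp1, a fibulin, was at 1.06, 3.24 and 0.658 TPM against 7.65, 6.39 and 5.85 TPM, and it fell by 1.64 on the log2 scale (adjusted p = 0.0298).

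The small leucine-rich proteoglycans coat collagen fibrils, and of the 3 tested Dcn (decorin) fell. Dcn was at 6.04, 23.3 and 8.74 TPM in GKO tumours and at 53.2, 43.2 and 39.6 TPM in GKO non-tumours, a fall of 1.96 on the log2 scale (adjusted p = 0.0342). Lum (lumican) and Bgn (biglycan) had log2 fold changes of -0.42 and 0.50 and overlapped between the groups. Of the 8 glycoproteins, Sparc rose most, from 36.1, 28.9 and 22.4 TPM to 274, 185 and 226 TPM, a log2 fold change of 2.93 ± 0.27 (SE, adjusted p = 0.00406). Fn1, Thbs1 (thrombospondin), Postn (periostin) and Mgp (matrix Gla protein, an inhibitor of calcification) rose with log2 fold changes of 1.46, 1.44, 1.12 and 0.98 (adjusted p = 0.0414, 0.0342, 0.0447 and 0.0421). Ecm1 was at 14.98, 62.6 and 15.03 TPM against 182, 182 and 130.3 TPM, and it fell by 2.69 on the log2 scale (adjusted p = 0.0237). Tgfbi and Dpt (dermatopontin) overlapped between the groups, with log2 fold changes of 0.07 and 0.27.

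In WT mice the same comparison called 1 of the 44 members tested, Nid1, beside 2.16% of all genes called higher and 2.07% called lower. Nid1 was at 36.4, 33.0 and 42.1 TPM in WT tumours and at 1.67, 7.74 and 1.70 TPM in WT non-tumours, a log2 fold change of 3.26 ± 0.47 (SE, limma, adjusted p = 0.0155). At an unadjusted p under 0.05, 11 members were higher and 5 lower, beside 9.31% and 10.6% of all genes. Those higher were Nid1, Col4a1, Col4a2, Col1a1, Lama5, Sparc, Col3a1, Col1a2, Lamb2, Hspg2 and Col5a2, and those lower were Lum, Mgp, Tgfbi, Dpt and Dcn. Mgp averaged under 0.5 TPM in WT tumours and passed the filter through the non-tumours alone. Col4a1 was at 45.7, 41.1 and 26.6 TPM in WT tumours and at 7.22, 21.6 and 4.72 TPM in WT non-tumours, with WT non-tumour 2 the highest of its group.

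WT non-tumour 2 decided much of that comparison. Without it 6 members rose (Nid1, Col1a1, Col4a1, Col4a2, Lama5 and Sparc) and 3 fell (Dcn, Col27a1 and Tgfbi), beside 2.87% and 3.13% of all genes. Dcn was at 5.99, 6.86 and 3.75 TPM in WT tumours, at 6.23 TPM in WT non-tumour 2 and at 35.7 and 30.6 TPM in the other WT non-tumours. Ecm1 showed the same split, with 7.14 TPM in WT non-tumour 2 and 114 and 84.4 TPM in the other two, against 20.5, 28.7 and 6.07 TPM in WT tumours. Without WT tumour 3, Nid1, Col1a2 and Emilin1 were called. Emilin1, an elastic fibre glycoprotein, was at 23.7 and 26.6 TPM in WT tumours 1 and 2 and at 4.87 TPM in WT tumour 3. Leaving out any other library of this comparison, or averaging WT tumours 1 and 2, ended the call of Nid1, so that 0 members were called, whereas the sign of its change did not turn.

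**Figure D3:**
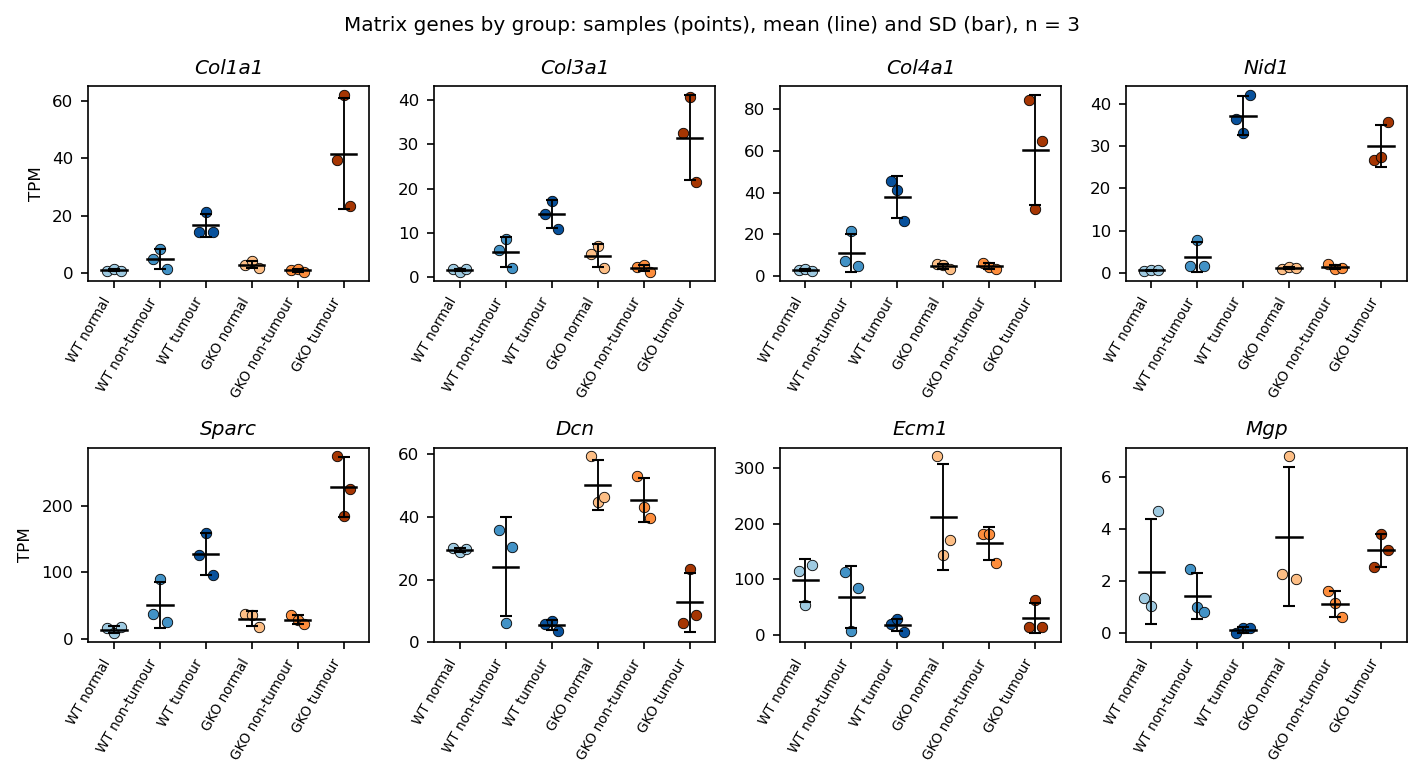
TPM of 8 members in the 6 groups, with each sample as a point, the mean as a line and the SD as a bar (n = 3). Col1a1, Col3a1, Col4a1, Nid1 and Sparc are higher in tumours of both genotypes. Dcn and Ecm1 are lower in GKO tumours than in GKO non-tumours, and in WT the low WT non-tumour 2 lies within the range of the tumours. Mgp is at 0 to 0.205 TPM in WT tumours and at 2.55 to 3.81 TPM in GKO tumours.

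Whether tumours changed the matrix genes by different amounts in the genotypes was tested as the difference of the 2 effects. No member passed, with 0 of 44 called by limma and 0 by voom on recovered reads, beside 0.0142% of all genes. The difference was the GKO effect minus the WT effect, so a positive value can also come from effects of opposite direction. At an unadjusted p under 0.05 it was positive for 17 members, beside 7.95% of all genes. They included Col1a1 (difference 2.54 ± 0.69 on the log2 scale, SE, adjusted p = 0.417), Col3a1 (2.12 ± 0.57, adjusted p = 0.417), Col1a2 (1.48 ± 0.49, adjusted p = 0.422) and Col15a1 (1.67 ± 0.57, adjusted p = 0.433). For Nid1 and Lama5, by contrast, the tumour effects were close, at 3.26 and 1.56 in WT and 3.74 and 1.58 in GKO. The median difference was 0.75 over the members tested and 0.23 over all genes. With median centring 11 members had an unadjusted p under 0.05 and the medians were 0.53 and 0.01. Without WT non-tumour 2 there were 18, with medians of 0.815 and 0.193. The 7.95% belongs to the uncentred fit of all samples, and the shares of all genes in the changed fits are not given here. In the non-tumours Col1a1 was at 4.86, 8.45 and 1.29 TPM in WT non-tumours and at 1.46 TPM or less in GKO non-tumours.

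**Figure D4:**
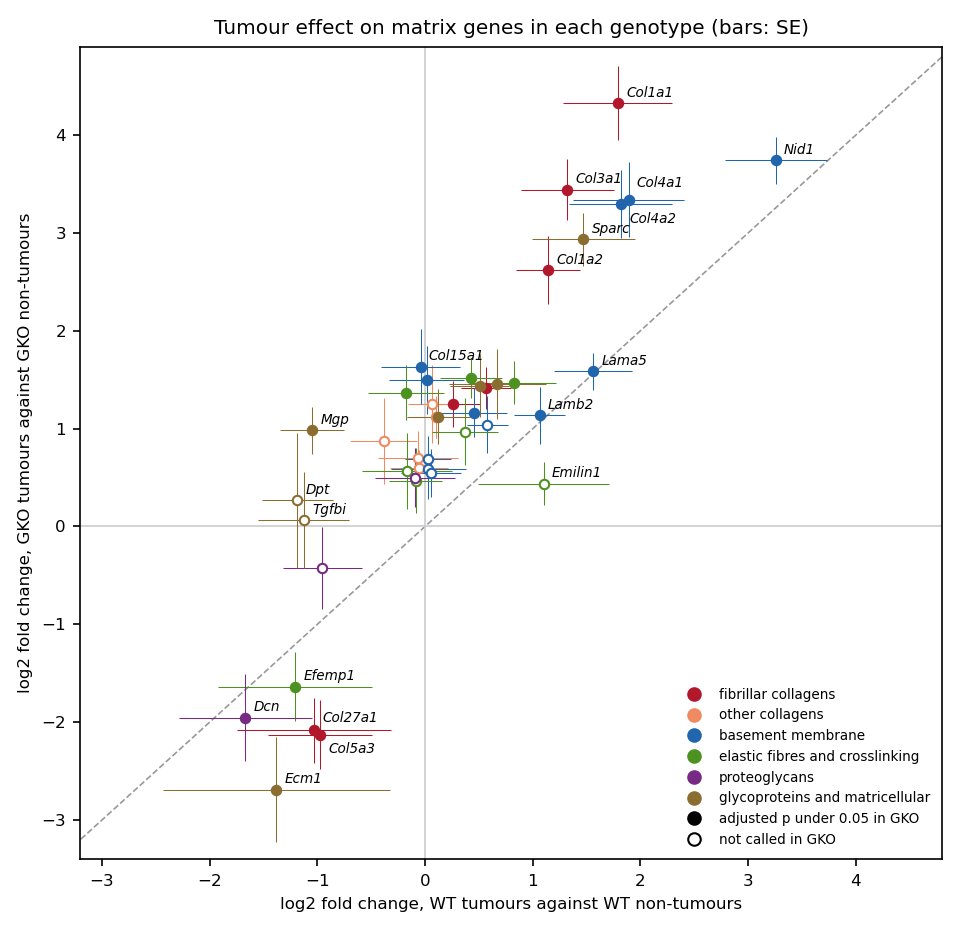
Log2 fold change of each member tested in both genotypes, tumours against non-tumours, in WT (horizontal axis) and GKO (vertical axis), with SE bars, colours by role and filled points for an adjusted p under 0.05 in GKO. The dashed line marks equal effects, Col1a1 (1.79 in WT, 4.33 in GKO) lies far above it, and Nid1, Lama5 and Lamb2 lie near it.

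GKO and WT tumours were then compared directly. Most members had higher values in GKO tumours, and none passed the test: limma called 0 of 46 tested and voom on recovered reads 0, beside 0.0215% of all genes. At an unadjusted p under 0.05, 18 were higher and 1 lower, beside 5.37% and 3.49% of all genes. For 20 members every GKO tumour was above every WT tumour, beside 9.88% of all genes. Over all 48 kept members 42 (87.5%) were higher in GKO tumours, beside 59.8% of genes that averaged 0.2 TPM or more, with median log2 fold changes of 0.61 and 0.08. The members were measured in the same 6 samples and are not independent of each other.

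Mgp stood apart in this comparison. Its 28, 37 and 31 reads in GKO tumours gave 2.55, 3.81 and 3.18 TPM, while 0, 2 and 2 reads in WT tumours gave 0, 0.205 and 0.191 TPM. Its log2 fold change was 1.88 ± 0.21 (SE, adjusted p = 0.12), and it was called, together with Emilin1, when WT tumour 3 was left out. Mgp averaged under 0.5 TPM in WT tumours, so it entered this comparison through the GKO tumours alone. Among fibrillar collagens, Col1a1 was at 14.4, 21.2 and 14.3 TPM in WT tumours, under all GKO tumours (log2 fold change 1.19 ± 0.37, adjusted p = 0.465). Col5a1 was at 5.48, 5.30 and 4.33 TPM in GKO tumours and at 1.88, 2.29 and 1.51 TPM in WT tumours (log2 fold change 1.07 ± 0.21, adjusted p = 0.296). The 3 chains of type VI collagen, which forms beaded microfibrils around cells, were all higher in every GKO tumour. Col6a1 was at 10.8, 4.55 and 2.89 TPM in GKO tumours and at 1.88, 1.89 and 1.47 TPM in WT tumours, with GKO tumour 1 far above the rest (log2 fold change 1.21 ± 0.40, adjusted p = 0.502). Sparc was at 126, 159 and 95.8 TPM in WT tumours, below the lowest GKO tumour (log2 fold change 0.85 ± 0.27, adjusted p = 0.473).

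Other members were lower or overlapped. Col5a3 was at 11.5, 11.7 and 8.92 TPM in WT tumours and lower in every GKO tumour, with a log2 fold change of -1.24 ± 0.28 (SE, adjusted p = 0.369). Among basement membrane genes, Nid1, Col4a1, Col4a2 and Lama5 overlapped between the genotypes, with log2 fold changes of -0.31 ± 0.22, 0.60 ± 0.39, 0.51 ± 0.40 and -0.16 ± 0.23 (SE). Col15a1 did not overlap, at 6.96, 2.83 and 4.66 TPM in GKO tumours and 2.25, 2.40 and 2.28 TPM in WT tumours (log2 fold change 0.75 ± 0.29, SE, adjusted p = 0.537). Of the members with a miR-181 match 8 were tested, all 8 were higher in GKO tumours and 4 had an unadjusted p under 0.05, with a median log2 fold change of 0.68. Of the 38 without a match 32 were higher, 14 of them with an unadjusted p under 0.05, with a median of 0.62. The ranges overlapped, from 0.31 to 1.19 with a match and from -1.24 to 1.88 without. In normal livers the median was 0.25 with a match and 0.56 without, and in non-tumours it was -0.24 with a match, where 1 of 8 was higher in GKO, and -0.16 without.

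**Figure D5:**
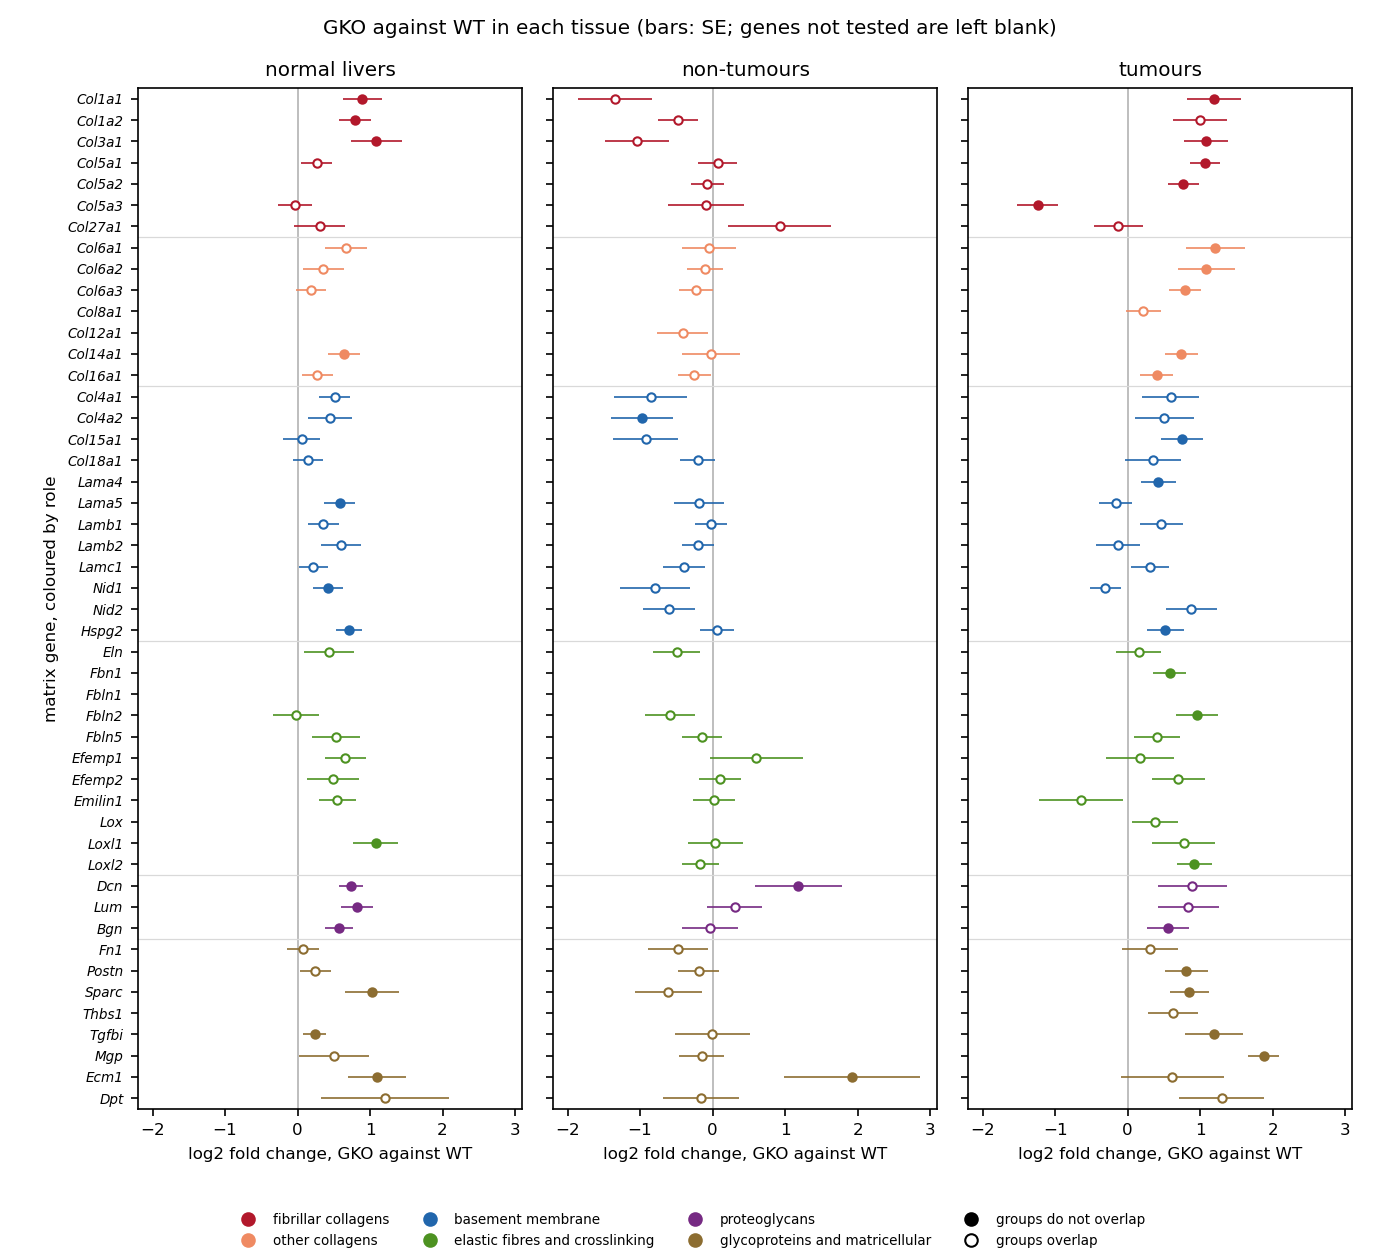
Log2 fold change of GKO against WT for each member tested, with SE bars, in normal livers, non-tumours and tumours, with filled points where the 3 GKO and 3 WT samples do not overlap. Points lie mostly to the right of 0 in normal livers and tumours and mostly to the left in non-tumours, and no member passed an adjusted p of 0.05 in any panel.

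In normal livers most members also had higher values in GKO, and none passed the test. Limma called 0 of 38 members tested and voom 0, beside 0% of all genes, while 14 were higher at an unadjusted p under 0.05, beside 3.17% of all genes. Over all 48 kept members 44 (91.7%) were higher in GKO normal livers, beside 61.2% of genes, with median log2 fold changes of 0.39 and 0.06. Dcn was at 59.4, 44.8 and 46.3 TPM in GKO and at 30, 28.7 and 29.7 TPM in WT normal livers, with no overlap (log2 fold change 0.74 ± 0.17, SE, adjusted p = 0.891). This was the member with the smallest unadjusted p. Ecm1 was at 321, 144 and 171 TPM against 114, 54.9 and 127 TPM (log2 fold change 1.09 ± 0.40, SE, adjusted p = 0.999). Col3a1 was at 5.26, 7.05 and 2.01 TPM against 1.70, 1.18 and 1.70 TPM (log2 fold change 1.09 ± 0.36, SE, adjusted p = 0.999). Loxl1, a lysyl oxidase that acts on elastin, was at 2.38, 4.33 and 1.43 TPM against 0.759, 0.409 and 0.872 TPM. All of the proteoglycans tested, Dcn, Lum and Bgn, were higher in every GKO normal liver, as were 16 of the 48 members in all, beside 6.11% of genes. Stellate and fibroblast markers summed to 86.2 to 126 TPM in GKO and 47.4 to 88.1 TPM in WT normal livers, with 11 of 12 tested higher in GKO and 6 of them at an unadjusted p under 0.05. For endothelial markers these counts were 14 and 9 of 15, and the part of either cell type in the members' values was not tested.

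In non-tumours most members had lower values in GKO. Limma and voom each called 0 of 42 members, beside 0% of all genes, and 1 was lower at an unadjusted p under 0.05, beside 3.84% of all genes. That was Col1a1, with a log2 fold change of -1.35 ± 0.51 (SE, adjusted p = 0.643), or -0.89 ± 0.45 without WT non-tumour 2. Over all 48 kept members 11 (22.9%) were higher in GKO non-tumours, beside 35.9% of genes, with medians of -0.16 and -0.11. Without WT non-tumour 2, 8 were higher (16.7%). The direction depended on the scaling: median centring moved the median of the 42 members tested from -0.16 to 0.00 and that of all genes tested from -0.15 to 0.02. For 2 members, Dcn and Ecm1, every GKO non-tumour was above every WT non-tumour, beside 4.09% of genes. For 1 member every GKO non-tumour was below, beside 8.42% of genes. In GKO non-tumours Dcn was at 53.2, 43.2 and 39.6 TPM and Ecm1 at 182, 182 and 130.3 TPM.

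WT non-tumours were compared with WT normal livers, and genes in general had higher values in non-tumours. Limma called 0 of 41 members and voom 0, beside 0.00744% of all genes. At an unadjusted p under 0.05, 12 were higher, beside 22.4% of all genes. Median centring lowered the median of all genes from 0.32 to -0.05, and 1 member then reached that threshold. Without WT non-tumour 2, 14 members were higher at an unadjusted p under 0.05, with median log2 fold changes of 0.62 for members and 0.28 for all genes. For the centred fit and this one the share of all genes at that threshold is not given here, so an excess of members cannot be read from these counts. Sparc, at 37.7, 90.5 and 25.2 TPM against 17.0, 8.35 and 17.3 TPM, had a log2 fold change of 1.64 ± 0.49 (SE, adjusted p = 0.141). Hspg2 was at 4.62, 4.18 and 3.59 TPM against 1.95, 1.87 and 2.24 TPM (log2 fold change 0.76 ± 0.17, adjusted p = 0.117). Of the 12, 8 were basement membrane genes. In GKO mice limma and voom each called 0 of 39 members, beside 0% of all genes, and 2 were lower in non-tumours than in normal livers at an unadjusted p under 0.05, beside 0.909% of all genes. There were 6 with median centring, 7 with quantile normalization and 5 with voom. The 0.909% belongs to the limma fit without these changes, and the shares of all genes in the changed fits are not given here. In these fits the median log2 fold changes were -0.239, -0.254 and -0.203 for members tested and -0.025, -0.016 and 0.089 for all genes. Over all 48 kept members 17 (35.4%) were higher in non-tumours, beside 64.3% of genes. The 2 were Col1a1, at 1.19, 1.46 and 0.435 TPM against 2.74, 4.22 and 1.90 TPM, and Mgp, at 1.61, 1.18 and 0.627 TPM against 2.27, 6.79 and 2.08 TPM. Their log2 fold changes were -0.96 ± 0.30 and -1.03 ± 0.38 (SE, adjusted p = 0.825 and 0.952).

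The difference of the DEN effect between the genotypes, a comparison added after the data were seen, called 0 of 40 members by limma and 0 by voom, beside 0% of all genes. At an unadjusted p under 0.05 the difference, GKO effect minus WT effect, was negative for 8 members, beside 5.12% of all genes. Col1a1, Col3a1 and Col1a2 had differences of -2.24 ± 0.62, -2.13 ± 0.61 and -1.27 ± 0.36 on the log2 scale (SE, adjusted p = 0.724 for each), and the others were Sparc, Col4a1, Col4a2, Nid1 and Hspg2. This comparison and the others share samples: the WT and GKO non-tumours also enter the tumour comparisons.

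Genes that process, bind or accompany the matrix were counted from separate lists, to be read beside the 7.75% of all genes called higher in GKO tumours and the 2.16% in WT tumours. Some called genes averaged under 0.5 TPM in one of the groups and entered only through the other, namely Loxl4 among enzymes in WT, 1 receptor in GKO, 2 other matrix genes in WT and 3 in GKO, Omd included, and 3 TGF beta genes in GKO. Of the collagen processing enzymes 6 of 23 tested rose in GKO tumours, led by Adamts14 (a procollagen N-proteinase), at 2.90, 18.8 and 4.48 TPM against 0.639, 0.589 and 0.454 TPM (log2 fold change 2.27, adjusted p = 0.0407). In WT tumours 2 of 22 rose, led by Loxl4 (log2 fold change 2.09, adjusted p = 0.037). Of the matrix receptors 3 of 21 rose in GKO tumours and 0 of 22 in WT tumours. The largest rise was in Ddr1, a receptor kinase for collagen, at 20.1, 23.2 and 12.2 TPM against 1.28, 0.321 and 0.520 TPM in GKO (log2 fold change 3.51, adjusted p = 0.00406). Of other matrix genes 6 of 37 rose and 1 fell in GKO tumours, and 4 of 32 rose in WT tumours. Aebp1, a collagen-binding protein, led in both, with log2 fold changes of 3.38 (adjusted p = 0.0105) and 3.26 (adjusted p = 0.0024), and Omd (osteomodulin) fell in GKO by 0.98 on the log2 scale (adjusted p = 0.028). Of genes of TGF beta signalling, which drives collagen transcription in stellate cells, 5 of 16 rose in GKO tumours and 2 of 16 in WT tumours, where Tgfbr2, a TGF beta receptor, led (log2 fold change 2.28, adjusted p = 0.0201). None of these lists had a call between GKO and WT tumours with limma, and at an unadjusted p under 0.05 enzymes had 4 higher and 2 lower of 22, receptors 1 and 1 of 22, other matrix genes 5 and 0 of 36 and TGF beta genes 0 and 1 of 16, beside 5.37% higher and 3.49% lower of all genes.

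Markers of other cell types moved beside these results, and their part in them was not tested. Stellate and fibroblast markers (20 genes, none at 0 in a whole group) summed to 110.6 to 136 TPM in GKO tumours, 54.8 to 96.7 TPM in WT tumours and 86.6 to 142 TPM in GKO non-tumours. In GKO tumours 6 of 14 tested had higher values, with a median log2 fold change of -0.16. Of these 14, 4 were called higher, led by Acta2 (smooth muscle actin, log2 fold change 3.49, adjusted p = 0.00655), and Vipr1 was called lower (-1.54, adjusted p = 0.0179). In WT tumours 6 of 13 had higher values, with a median of -0.50. Of these 1 was called, Rgs5, which fell (-1.48, adjusted p = 0.0136). Lrat, which stores retinoid in quiescent stellate cells, was not called. It was at 0.526, 1.58 and 0.797 TPM in GKO tumours and at 4.01, 2.27 and 2.25 TPM in GKO non-tumours. Cygb, Colec11, Reln and Ngfr, of the same list, overlapped between GKO tumours and GKO non-tumours. Endothelial markers (16 genes, none at 0) summed to 77.6 to 84.98 TPM in WT normal livers, 135 to 164 TPM in GKO normal livers, 177 to 272 TPM in WT tumours and 234 to 308 TPM in GKO tumours. Of 16 tested in GKO tumours, 9 had higher values and 6 were called, all rises. These were led by Cd34 (log2 fold change 2.02, adjusted p = 0.0216), which averaged under 0.5 TPM in GKO non-tumours and entered through the tumours alone. Of 15 tested in WT tumours, 14 had higher values and 0 were called. The median log2 fold changes were 0.54 in GKO and 0.53 in WT. Cholangiocyte markers (8 genes, none at 0) summed to 80.3 to 1033 TPM in GKO tumours and 76.1 to 147 TPM in WT tumours. Spp1 (osteopontin) made up most of the 2 largest GKO sums, at 33.9, 934 and 536 TPM in GKO tumours, while Krt19 was at 1.22, 5.47 and 1.05 TPM. Of these markers none of 6 was called in GKO and Tspan8 was called in WT (log2 fold change 4.34, adjusted p = 0.013). Macrophage markers summed to 107.9 to 344.6 TPM in GKO tumours and 141.8 to 807.6 TPM in GKO non-tumours. In WT they summed to 198.7 to 272.3 TPM in tumours and 156.2 to 479.4 TPM in non-tumours. Of 12 tested, 5 were higher in GKO tumours, with a median log2 fold change of -0.49, 1 called rise (Cd14) and 2 called falls. In WT tumours Cd14 was called and was the only 1 of 10 tested with higher values, and the median was -1.095. T cell and B cell markers had 1 fall of 9 and 2 falls of 8 in GKO tumours and no call in WT tumours. Mesothelial and smooth muscle markers had 3 rises of 5 in GKO tumours and none of 4 in WT tumours, and hepatocyte markers had 2 rises of 10 in GKO tumours and 1 rise and 1 fall of 10 in WT tumours. Of these calls in GKO, 2 mesothelial and smooth muscle rises (Actg2 and Myh11) were of genes that averaged under 0.5 TPM in non-tumours.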

How the data were processed

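RNA sequencing covered 18 samples of mouse liver and liver tumour. STAR 2.7.3a and mm10 were used by the authors for alignment and featureCounts 2.0.0 for counting, and TPM values were deposited. The gene annotation, strand setting and TPM calculation are not given in the sources used here. TPM of all 54838 genes summed to 1000000 per sample, and 0 columns had no sample. TPM multiplied by the exonic length of GENCODE mouse release 21 (54809 genes matched) gave whole reads, within 0.02, for 97.95 to 98.67% of values of up to 30 reads.

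Each comparison was a 2-sided limma test (version 3.58.1, R 4.3.3, a trended eBayes fit) of log2(TPM + 1). Genes had to average 0.5 TPM over the compared samples, and p-values were adjusted by Benjamini-Hochberg over all of them. Fold changes on this scale understate changes of low genes. Single values had exact permutation tests. The members, roles and lists were chosen with earlier results of these data known. Genes named with values were a fixed set of 28 members, the called members of any comparison (where over 10, only the 5 that rose most and the 5 that fell most) and the largest called rise and fall of each list. Some genes that this rule names are not reported here. Members outside that rule, such as Col5a1, Col6a1, Emilin1, Loxl1, Loxl2 and Nid2, were named after their values were seen. So were the markers Lrat, Cygb, Colec11, Reln and Ngfr. Alternatives were a pseudocount of 0.1, other filters (none, or 5 TPM), median centring, quantile normalization, a single fit of all samples, no trend, a replicate block, each replicate left out and WT tumours 1 and 2 averaged. Voom on recovered reads, the DEN effect difference and the counts over all 48 members were added after seeing the data. Scripts were tested on simulated data. Python 3.11.15, pandas 2.3.3 and matplotlib 3.10.9 were used.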

Additional observations from a re-analysis of the deposited data

Results flagged for a closer look

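Mgp had lower values in tumours than in non-tumours in WT mice, without being called, and higher values in GKO mice. In WT mice every tumour was below every non-tumour, at 0, 0.205 and 0.191 TPM against 2.46, 1.03 and 0.805 TPM, and in GKO mice every tumour was above every non-tumour, at 2.55, 3.81 and 3.18 TPM against 1.61, 1.18 and 0.627 TPM. The difference of the effects was 2.03 ± 0.38 on the log2 scale (SE, limma, adjusted p = 0.238). The reads behind these values were few, with 0 to 2 per WT tumour and 37 or fewer in any GKO tumour. Mgp averaged under 0.5 TPM in WT tumours, so the non-tumours alone carried it into the WT comparison. Its rise in GKO was called under 4 of 14 alternatives, among them 1 of the 6 fits with a replicate left out.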

How the results depend on the processing

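Among WT tumours against WT non-tumours, members called numbered 10 with all 18 samples in one fit, 0 with WT tumours 1 and 2 averaged, and 0 to 9 with a replicate left out, against 1. Among GKO tumours against GKO non-tumours they numbered 13 with no filter, 11 at a mean of at least 5 TPM, where fewer members are tested, and 8 to 24 with a replicate left out, against 29. Among GKO against WT tumours they numbered 2 with all 18 samples in one fit and 0 to 2 with a replicate left out, against 0. The cause was not tested, and shares of all genes are not given for these counts. Counts for the other 6 comparisons stayed at 0 under every alternative. No called fold change of a member turned its direction under any alternative run. The labels give replicate numbers but no shared animal or day. Same-numbered samples were correlated in their deviations from the group means. These correlations were 0.0998, 0.116 and 0.194 in GKO against WT tumours, and 0.119, 0.0689 and 0.0414 in GKO tumours and non-tumours. As a hint from the data, 6 of 6 samples of GKO tumours and non-tumours correlated best with their own number. The count was 5 of 6 in GKO against WT tumours, 4 of 6 in GKO against WT normal livers and 2 of 6 in WT tumours and non-tumours. It was 1 to 3 of 6 in the other comparisons. With the replicate number as a replicate block, members called were 25 in GKO tumours against non-tumours, of which 24 were shared with the unblocked fit, 1 in WT tumours against non-tumours and 0 elsewhere.

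Median centring moved the median log2 fold change of all genes from 0.20 to -0.04 in GKO tumours against non-tumours and their calls from 1092 higher and 560 lower to 777 and 990, with 15 rises and 5 falls among members. For WT non-tumours against normal livers it moved that median from 0.32 to -0.05 and the members' from 0.48 to 0.10. Depth limits members such as Lox, Col8a1 and Mgp, with 0 to a few reads in some libraries.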
